A study of Caenorhabditis elegans with 24 samples.

Results

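The genes of the mitochondrial respiratory chain and of the ATP synthase were followed in dissected intestines of Caenorhabditis elegans in which RNA polymerase I could be degraded. Members were all genes of the deposited count table whose name starts with nuo-, nduf-, cox-, ucr-, sdh-, atp-, asb- or asg-, together with gas-1, lpd-5, mev-1, isp-1, cyc-1, cyc-2.1 and hpo-18. Of 48 genes named this way in the reference annotation, 47 had a row among the 20392 genes of the table. They comprised 14 genes of complex I, 1 of complex II, 8 of complex III with cytochrome c, 7 subunits of complex IV, 7 assembly factors of complex IV and 10 genes of the ATP synthase. Of the 47 members, 42 passed the filter on low counts that 6903 genes in all passed. The other 5 (nduf-2.2, ucr-2.3, cox-10, cox-17 and cox-19) were too low in every group to be tested.

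The respiratory chain moves electrons from NADH through complex I, and from succinate through complex II, to ubiquinone, complex III, cytochrome c and complex IV, where oxygen is reduced. Complexes I, III and IV pump protons across the inner mitochondrial membrane, and the ATP synthase (complex V) uses the return flow to make ATP. Most subunits are encoded in the nucleus, many of them as very short messages, and are imported into the mitochondrion. In C. elegans, mutations in chain subunits such as gas-1, mev-1, isp-1 and nuo-6 are known for their effects on oxygen consumption, stress resistance and lifespan.

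All animals carried ieSi57, in which the eft-3 promoter, active in most somatic cells, drives the plant F-box protein TIR1 fused to mRuby, in an unc-119(ed3) background with a Caenorhabditis briggsae unc-119 rescue. Worms with this allele alone are called TIR1 and served as controls. Pol I-AID worms carried in addition qzIs15, an rpoa-2 gene with a degron and GFP, so that auxin removes RPOA-2, a large subunit of RNA polymerase I, wherever TIR1 is made, not in the intestine alone. Larvae were grown for 72 h at 20 °C, which by the paper brought them to day 1 of adulthood. Intestines of these adults were taken without auxin (0 h) or after 12 h or 24 h on 1 mM auxin. There were 4 replicates of each of the 6 groups, 24 libraries in all, each made from several pooled intestines. Animals kept longer on auxin were also older, so age and auxin cannot be told apart in comparisons over time. The strains had been outcrossed 3 times for replicates 2 to 4, but only 1 time for replicate 1. The comparison of Pol I-AID with TIR1 at each time asks which transcripts differ once RNA polymerase I is lost, and the comparison at 0 h gives the difference present before auxin.

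Libraries held between 3175888 and 29473696 counts, of which 67.6% to 79.9% fell on the 6 vitellogenin genes, so that the members shared 16313 to 151499 counts per library. TIR1 at 0 h replicate 3 and TIR1 at 24 h replicate 1 were the shallowest (3175888 and 4675665 counts). Counts were mostly even numbers (70.1% to 82.4% of counts from 1 to 10). Whether both mates of a read pair were counted is not given in the sources used here. If they were, low counts stand for fewer fragments than their number. The 6 intestinal markers other than vitellogenins were present in every group, at 1709 to 4138 counts per 1000000 (CPM) of those outside the vitellogenin genes. At 24 h their sum was lower in Pol I-AID (1709 to 2022) than in TIR1 (2394 to 2568), without overlap. Markers of other tissues were high in 3 libraries: body wall muscle in TIR1 at 0 h replicate 1 (558 CPM), germline in Pol I-AID at 0 h replicate 4 (281) and pharynx in TIR1 at 24 h replicate 3 (86.8). In 5 libraries, short genes took up more of the reads than long ones. The fitted level of short against long genes in them lay 0.66 to 1.85 above the average of the libraries on the log2 scale, against at most 0.03 in the other 19. These were Pol I-AID at 0 h replicate 3, TIR1 at 12 h replicate 2, Pol I-AID at 12 h replicate 4, and TIR1 at 24 h replicates 3 and 4, and no Pol I-AID library at 24 h was among them. The rpoa-2 message was low in both strains (0 to 1.43 CPM in TIR1, 0.359 to 1.63 in Pol I-AID), and it is no check of a degron that acts on the protein.

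Levels are given in CPM over all counts, scaled by TMM factors, and, between genes, per kilobase of exon. The level of 1 member stood far above the rest. atp-1, the alpha subunit of the catalytic head of the ATP synthase, averaged 1790 CPM per kilobase over the 24 libraries, held 80.1% to 87.7% of all member counts, and ranked 11th by CPM among genes other than vitellogenins. atp-2, its beta subunit partner, averaged 107 CPM per kilobase. The ratio of atp-1 to atp-2 per kilobase lay between 14.6 and 20.8 in every library. nuo-3, an accessory subunit of complex I, followed at 78.6, with a range (35.5 to 138) that overlapped that of atp-2 (65.5 to 174). Its exons share 783 bases on the same strand with another annotated gene in the current Ensembl annotation, so its counts may include reads of that gene. Cytochrome c (cyc-2.1) averaged 31.2, the ATP synthase stalk subunit atp-3 averaged 28.1, the complex IV subunit cox-4 averaged 21.3, and the cytochrome b subunit of complex II mev-1 averaged 20.0 CPM per kilobase, and the ranges of these 4 over the libraries overlapped. The assembly factors of complex IV were the lowest class (0.00202 to 2.19 CPM per kilobase), led by cox-15, which acts in the synthesis of haem A.

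**Figure D1:**
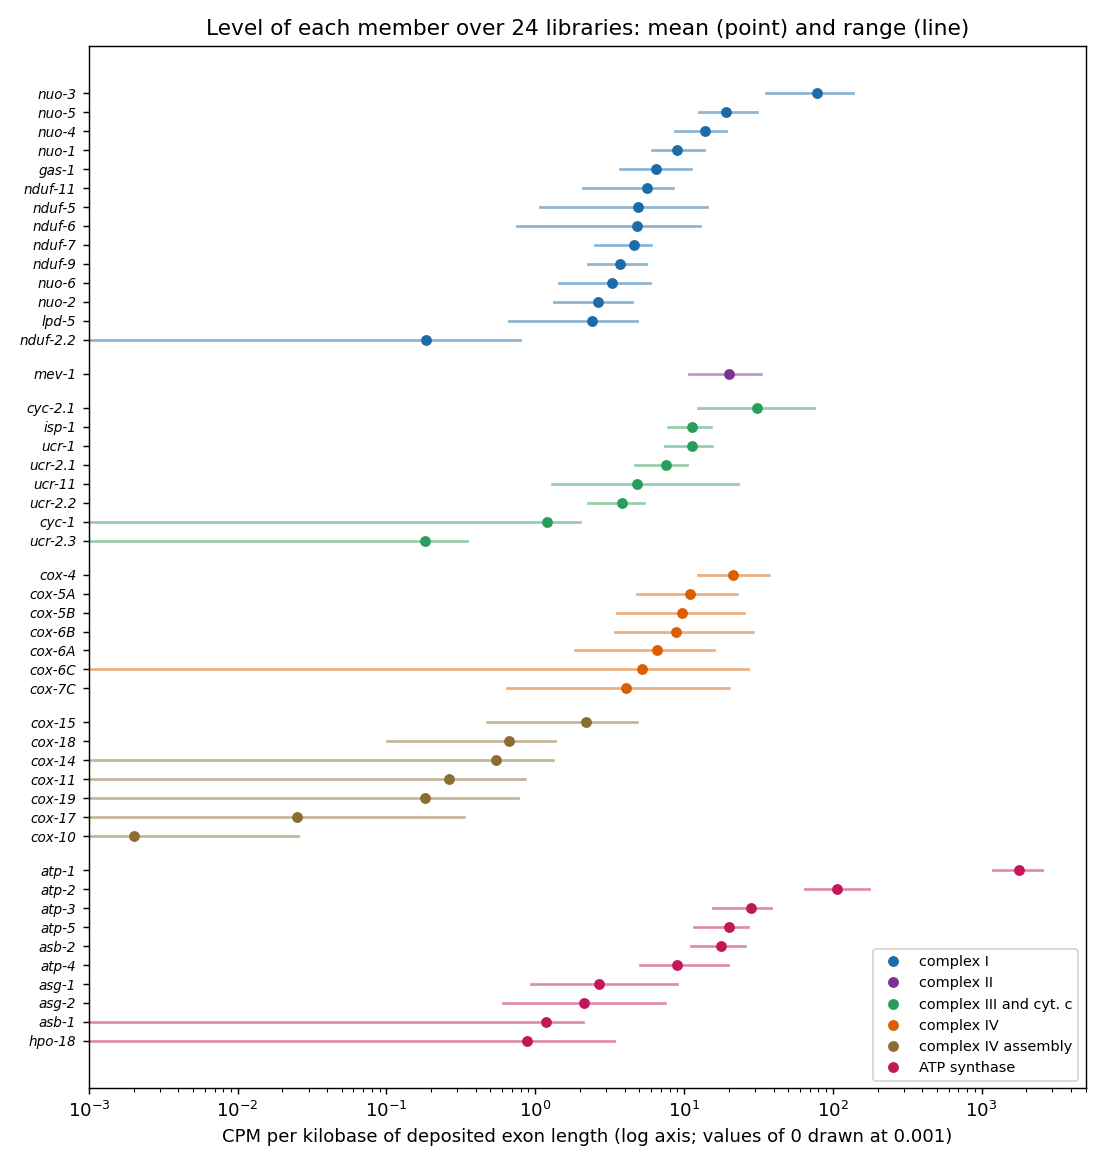
Level of each of the 47 members, in CPM per kilobase of deposited exon length on a log axis, by complex. Points are means over 24 libraries and lines run from the lowest to the highest library. atp-1 stands at 1790 and atp-2 at 107, while the assembly factors of complex IV lie between 0.00202 and 2.19.

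Paralogs of the same subunit differed widely in level. Of the pair that encode subunit b of the ATP synthase, asb-2 averaged 17.7 CPM per kilobase and asb-1, known as the germline form, 1.19. In complex III, ucr-2.1 (7.58) lay above ucr-2.2 (3.86), and ucr-2.3 (0.181) was barely detected. In complex I, gas-1 averaged 6.52 and its paralog nduf-2.2 averaged 0.184. The subunit g genes asg-1 (2.70) and asg-2 (2.13) were of similar level, with ranges that overlapped. Reads shared between such copies are counted only where they map uniquely, and the levels of paralogs are uncertain to that extent.

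After 24 h on auxin, some genes of complexes I, III and IV and of the ATP synthase were called lower in intestines of Pol I-AID than of TIR1 worms. Without the 5 libraries high in short genes, 0 genes of complexes III and IV were called. Of the 42 members tested, 15 were lower and 0 higher at an FDR under 0.05, the Benjamini-Hochberg adjusted p of edgeR's quasi-likelihood test over all genes. Among all 6903 genes, 6.45% were called lower and 7.34% higher. At an unadjusted p under 0.05, 27 members were lower and 0 higher (12.6% and 13.8% of all genes). DESeq2 called 17 lower and 0 higher, for which no share of all genes is given. Of the 15, 10 were also at least 2-fold lower, against 3.36% of all genes. In all, 38 of 42 members had a negative fold change. The median was -0.52 on the log2 scale, against 0.00 for the other 6861 genes. The 4 libraries of each strain did not overlap for 12 members, all lower in Pol I-AID, against 7.21% of all genes. The RNA comes from bulk tissue, so that a smaller share of intestinal cells in the sample and less RNA of these genes per cell cannot be told apart. The summed level of all members, most of it atp-1, was 3685 to 4210 CPM in TIR1 and 2869 to 3189 CPM in Pol I-AID, without overlap. The part of the intestinal markers, whose sum was also lower in Pol I-AID at 24 h, in these differences was not tested.

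The count of 15 rested on individual libraries. It was 5 without Pol I-AID replicate 2, 6 without TIR1 replicate 4, 7 without Pol I-AID replicate 4, 8 without TIR1 replicate 3, 9 without Pol I-AID replicate 3 and 18 without the shallow TIR1 replicate 1. Within replicates 2 to 4, from the strains outcrossed 3 times, it was 8, and replicate 1 alone allows no test. It was 7 without the 3 libraries rich in markers of other tissues, against 4.81% of all genes. For the fits without single libraries or within replicates 2 to 4, no share of all genes is given. Without the 5 libraries high in short genes, which leaves 2 TIR1 libraries at 24 h, only atp-1 and nuo-4 were called, of 44 members tested, against 3.24% of all genes, and the median over the members was -0.40 against 0.08 for other genes.

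The complexes differed in their medians and in how far these depended on gene length. Before any correction, the medians at 24 h were -0.51 for complex I (13 genes, 3 called lower), -0.36 for complex III with cytochrome c (7 genes, 2), -1.47 for the subunits of complex IV (7 genes, 3), -0.68 for its assembly factors (4 genes, 1) and -0.46 for the ATP synthase (10 genes, 6). mev-1, the only complex II gene, stood at -0.68. With the trend of level on exon length removed in each library, the median of complex IV subunits was -0.72, and those of complex I, III and V were -0.47, -0.38 and -0.51. Without the 5 libraries high in short genes, they were -0.41 for complex I, -0.35 for complex III, -0.31 for complex IV and -0.40 for the ATP synthase. The subunits of complex IV are among the shortest members (median exon length 719 bases, against 1058 over all 47). No test between complexes was made.

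**Figure D2:**
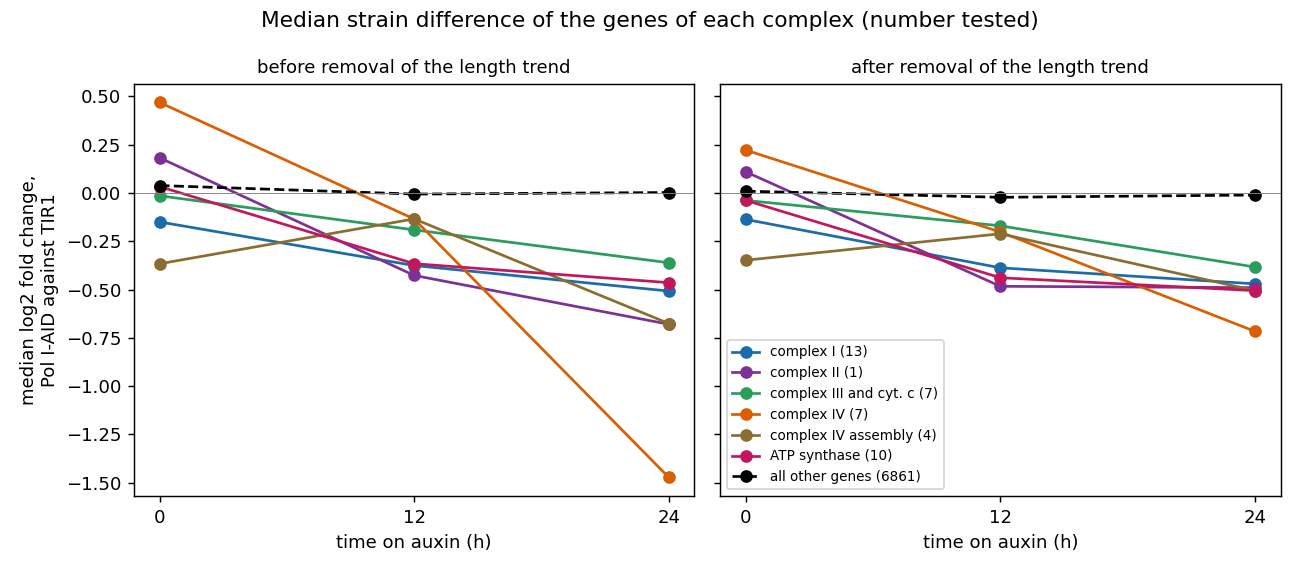
Median log2 fold change of Pol I-AID over TIR1 worms before auxin and after 12 or 24 h on it for the tested genes of each complex and for all other genes, before (left) and after (right) removal of the exon length trend. At 24 h the complex IV median is -1.47 before and -0.72 after the removal, and that of the ATP synthase is -0.46 and -0.51.

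In CPM, the ATP synthase genes atp-1, atp-2 and atp-3 were lower in Pol I-AID at 24 h with no overlap between the strains. Relative to counts outside the vitellogenin genes, the strains overlapped for atp-2 but not for atp-1 and atp-3. atp-1 stood at 3636, 3590.2, 3259 and 2975 CPM in TIR1 replicates 1 to 4 and at 2439, 2502, 2693 and 2565 CPM in Pol I-AID. Every Pol I-AID library lay below every TIR1 library, and the difference was -0.40 ± 0.10 on the log2 scale (± SE, n = 4 per group, 0.758 of the control level, edgeR FDR 0.00850). atp-2 was at 168, 198, 180.3 and 163 CPM in TIR1 and 128, 127, 149 and 134 in Pol I-AID. In CPM it too fell without overlap, by 0.40 ± 0.12 log2 units (edgeR FDR 0.0249). atp-3, the subunit that joins the stator to the catalytic head, was at 29.5, 30.0, 33.3 and 31.8 CPM in TIR1 and 22.5, 23.1, 24.1 and 16.6 in Pol I-AID, a difference of -0.53 ± 0.14 (edgeR FDR 0.0106). These 3 genes have exons of 1058 to 2027 bases, were not among the members that were highest in the libraries rich in short genes, and kept their values after the length trend was removed (atp-1 -0.47 ± 0.09, atp-2 -0.45 ± 0.11 and atp-3 -0.54 ± 0.13 on the log2 scale, edgeR FDR 0.000642, 0.00451 and 0.00369). Without the 5 libraries high in short genes the log2 values were -0.53 for atp-1, -0.47 for atp-2 and -0.48 for atp-3, and only atp-1 remained called (edgeR FDR 0.00755, against 0.0696 and 0.129). Of 24 alternatives at 24 h, the call for atp-1 was lost in 2, without replicate 1 and without replicate 2. That for atp-2 was lost in 10, among them no count filter and the fits without replicate 1, 2 or 3. It was also lost without the 3 libraries with markers of other tissues. The call for atp-3 was lost in 5, among them no count filter and the fits without replicate 2 or 4.

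**Figure D3:**
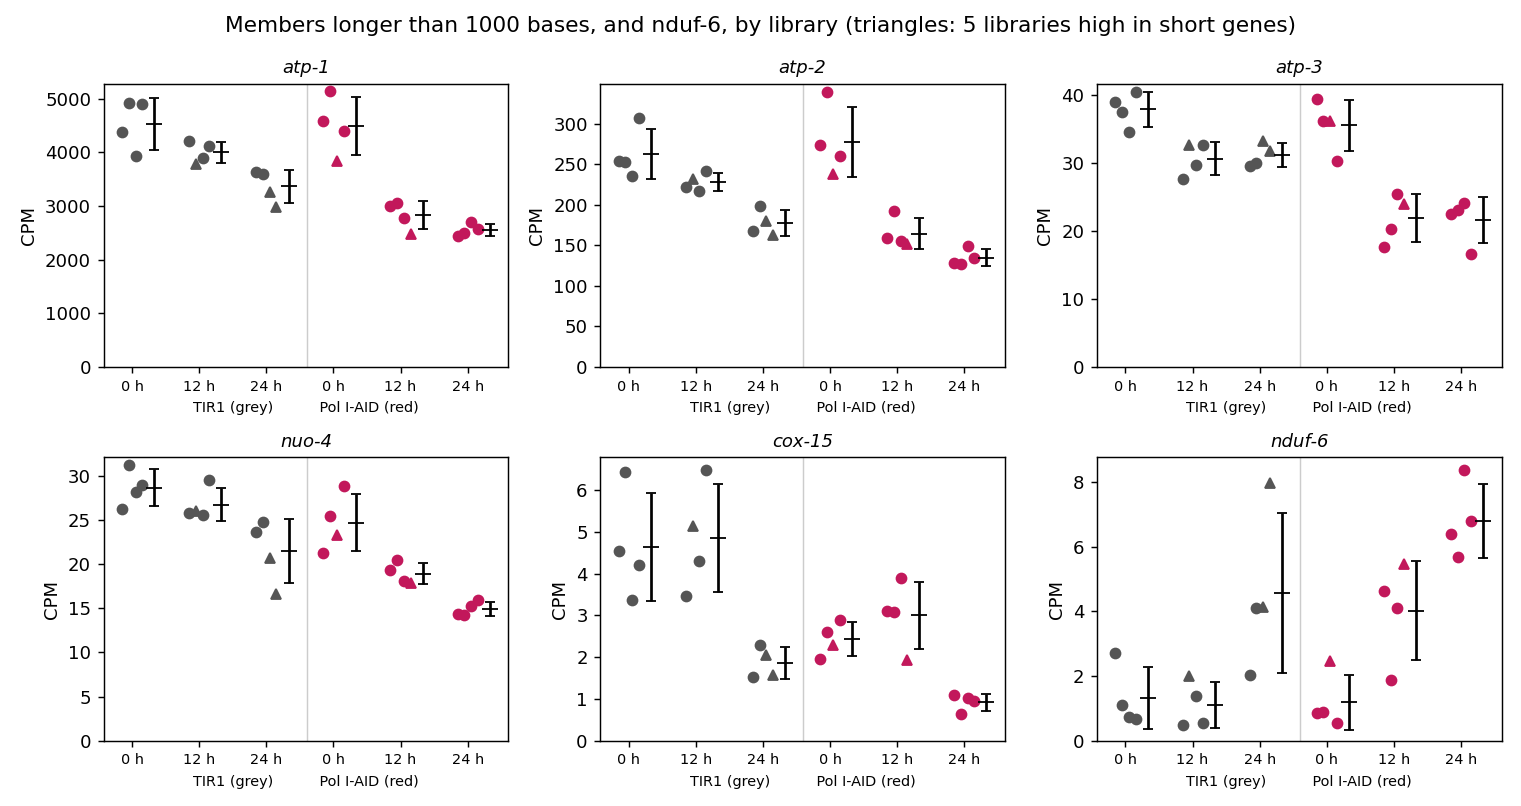
CPM of atp-1, atp-2, atp-3, nuo-4, cox-15 and nduf-6 in each library of TIR1 (grey) and Pol I-AID (red) at 0, 12 and 24 h, with the mean ± SD of 4 libraries in black. Triangles are the 5 libraries high in short genes. At 24 h every Pol I-AID library lies below every TIR1 library for all but nduf-6, which is at 2.04 to 7.97 CPM in TIR1, against 5.67 to 8.37 in Pol I-AID.

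Among the other genes of the ATP synthase, atp-4 (coupling factor 6) was at 6.62, 8.39, 17.7 and 19.3 CPM in TIR1 and 5.18, 4.98, 5.94 and 4.91 in Pol I-AID. The groups did not overlap, but TIR1 replicates 3 and 4 lay far above the other libraries. The log2 difference was -1.34 ± 0.35 (edgeR FDR 0.0115), and -0.56 without the 5 libraries (edgeR FDR 0.187). asg-1 was at 0.509, 0.746, 3.67 and 4.27 CPM in TIR1 and 0.609, 0.689, 0.452 and 0.566 in Pol I-AID, so that TIR1 replicates 1 and 2 fell within or near the range of Pol I-AID. Its difference of -2.08 ± 0.65 (edgeR FDR 0.0318) shrank to -0.22 without the 5 libraries. hpo-18, the epsilon subunit, had only 0, 5, 16 and 24 counts in TIR1 and 0, 0, 2 and 2 in Pol I-AID. Its fitted difference of -3.11 ± 0.99 (edgeR FDR 0.0367) rests on TIR1 replicates 3 and 4, and with the length trend removed the FDR was 0.368. The stalk subunits asb-2 (-0.10 ± 0.16, 95% interval -0.42 to 0.22) and atp-5 (-0.19 ± 0.22, -0.63 to 0.26) were not called and their groups overlapped. asg-2 (-1.61 ± 0.62) and asb-1 (0.06 ± 0.57) were not called either.

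The subunits of complex IV, cytochrome c oxidase, all had negative fold changes, with 3 of 7 called. cox-6A was at 2.80, 3.17, 7.28 and 8.67 CPM in TIR1 and 2.99, 1.01, 1.70 and 2.08 in Pol I-AID. cox-6B was at 5.86, 8.64, 19.8 and 32.6 CPM in TIR1 and 6.03, 3.87, 6.56 and 4.62 in Pol I-AID. cox-6C was at 2.04, 0.994, 3.13 and 10.8 CPM in TIR1 and 1.46, 1.22, 0.904 and 0.566 in Pol I-AID. In all 3 genes, TIR1 replicates 3 and 4 were high and replicates 1 and 2 lay among or close to the Pol I-AID libraries, so that the groups overlapped. The differences were -1.56 ± 0.45, -1.70 ± 0.51 and -2.06 ± 0.63 on the log2 scale (edgeR FDR 0.0219, 0.0247 and 0.0288). Without the 5 libraries high in short genes they were -0.68, -0.52 and -0.41, and none was called. cox-4, the complex IV subunit of highest level, was at 13.5, 21.8, 20.2 and 24.5 CPM in TIR1 and 14.7, 13.4, 14.1 and 17.2 in Pol I-AID, with overlap, and was not called (-0.45 ± 0.23, 95% interval -0.92 to 0.02). cox-5A (-0.80 ± 0.36), cox-5B (-1.14 ± 0.48) and cox-7C (-1.47 ± 0.59) were not called.

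**Figure D4:**
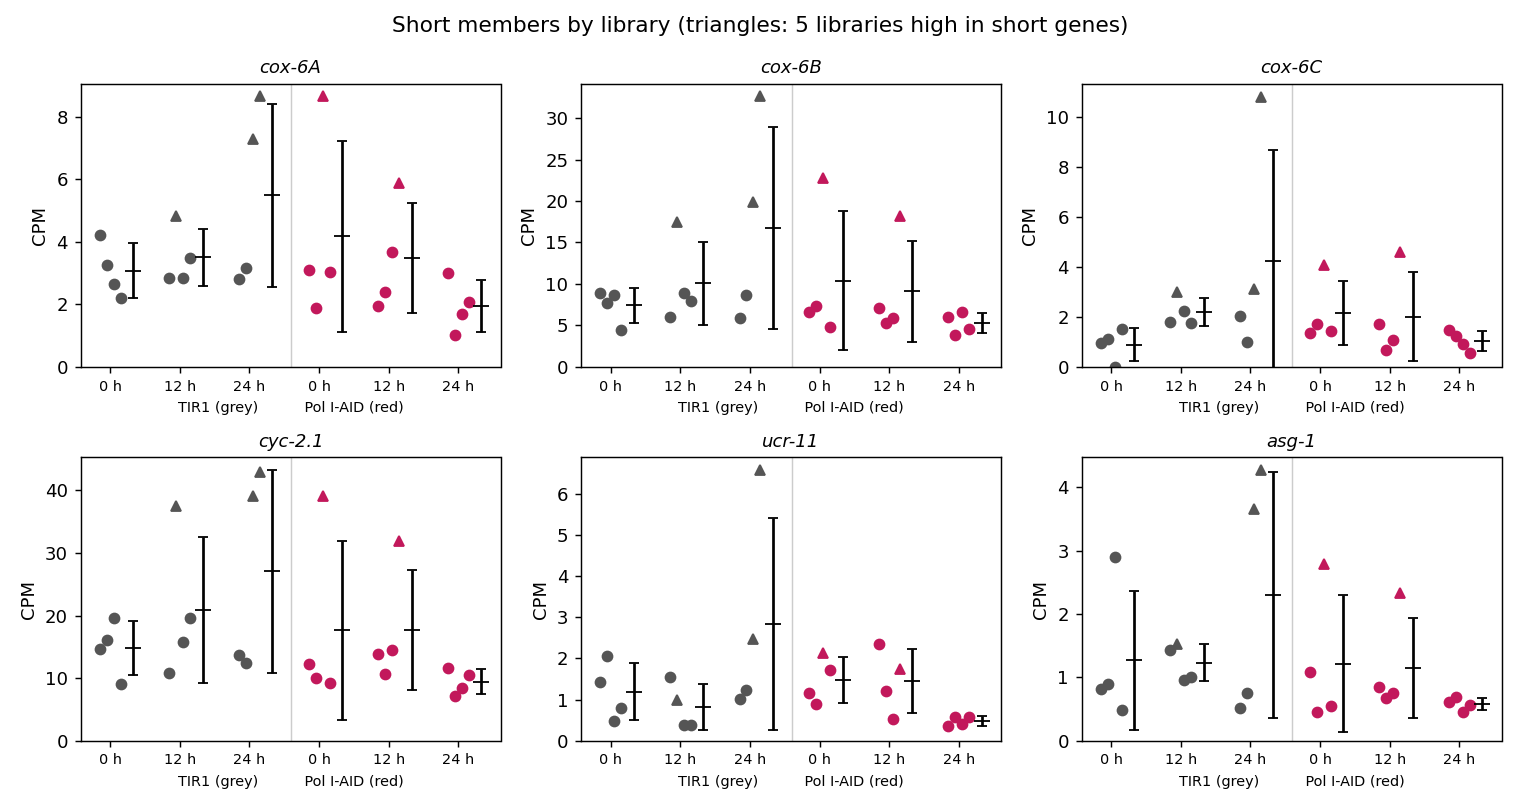
CPM of the short members cox-6A, cox-6B, cox-6C, cyc-2.1, ucr-11 and asg-1 in each library of TIR1 (grey) and Pol I-AID (red), with the mean ± SD of 4 libraries in black (bars end at 0 where the SD exceeds the mean). Triangles are the 5 libraries high in short genes, and they are the highest points in most groups that hold them. At 24 h TIR1 replicates 3 and 4 reach 19.8 and 32.6 CPM for cox-6B, while replicates 1 and 2 are at 5.86 and 8.64.

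The assembly factor cox-15 stood at 1.53, 2.299, 2.05 and 1.57 CPM in TIR1 and 1.097, 0.636, 1.02 and 0.943 in Pol I-AID at 24 h, without overlap. The difference was -1.04 ± 0.29 on the log2 scale (edgeR FDR 0.0181) and -1.05 ± 0.29 with the length trend removed. Before auxin it was already 4.54, 6.45, 3.38 and 4.20 CPM in TIR1 and 1.95, 2.6, 2.298 and 2.89 in Pol I-AID, again without overlap, a difference of -0.96 ± 0.25 that edgeR did not call (FDR 0.135) and DESeq2 did. The change of its strain difference from 0 to 24 h was -0.08 ± 0.37, with a 95% interval of -0.85 to 0.69. At 24 h the counts behind it were few (6, 37, 38 and 36 in TIR1, 18, 12, 18 and 10 in Pol I-AID). Its exons overlap a gene on the opposite strand by 80 bases. The assembly factors cox-11, cox-14 and cox-18 were not called.

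In complex III, which passes electrons from ubiquinol to cytochrome c, the small subunit ucr-11 was at 1.02, 1.24, 2.48 and 6.58 CPM in TIR1 and 0.366, 0.583, 0.396 and 0.566 in Pol I-AID. The groups did not overlap, and TIR1 replicate 4 was by far the highest. The log2 difference was -2.64 ± 0.60 (edgeR FDR 0.00350), -0.98 ± 0.50 after removal of the length trend (FDR 0.220) and -1.3 without the 5 libraries (FDR 0.328). It has the shortest exons of all members, 284 bases. Cytochrome c, cyc-2.1, was at 13.7, 12.4, 39.1 and 42.9 CPM in TIR1 and 11.6, 7.16, 8.42 and 10.6 in Pol I-AID. All Pol I-AID libraries lay below TIR1, with a gap of less than 1 CPM between the closest libraries of the strains. Its difference of -1.54 ± 0.47 (edgeR FDR 0.0294) was -0.92 ± 0.22 with the length trend removed (FDR 0.00465) and -0.50 without the 5 libraries (FDR 0.337). The longer core subunit ucr-1 (-0.45 ± 0.15, FDR 0.0532) and the Rieske iron-sulphur protein isp-1 (-0.36 ± 0.15, FDR 0.113) did not overlap between the strains but missed the threshold. ucr-1 passed it once the length trend was removed (-0.49 ± 0.16, FDR 0.0352). The cytochrome c1 gene cyc-1 and the core subunits ucr-2.1 and ucr-2.2 were not called, and cyc-1 (0.51 ± 0.38) and ucr-2.2 (0.23 ± 0.20) had positive values.

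In complex I, nuo-4, an accessory subunit, was called at both 12 and 24 h. At 24 h it was at 23.7, 24.7, 20.8 and 16.6 CPM in TIR1 and 14.4, 14.3, 15.2 and 15.9 in Pol I-AID, without overlap. Relative to counts outside the vitellogenin genes, the strains overlapped at 24 h. The log2 difference was -0.52 ± 0.13 (edgeR FDR 0.0106), -0.55 ± 0.13 after removal of the length trend and -0.72 without the 5 libraries (FDR 0.0086). Its call at 24 h was lost with no count filter, without replicate 1, without replicate 2, without replicate 3 and without the TIR1 library of replicate 2. nuo-3 was at 55.8, 71.0, 81.1 and 84.9 CPM in TIR1 and 40.3, 30.3, 56.8 and 41.3 in Pol I-AID. TIR1 replicate 1 lay within the range of Pol I-AID, and the difference was -0.80 ± 0.25 (edgeR FDR 0.0327). nduf-5, a short accessory subunit, was at 4.33, 1.80, 4.53 and 7.10 CPM in TIR1 and 2.32, 0.530, 1.36 and 1.32 in Pol I-AID, with overlap. Its difference of -1.70 ± 0.57 (edgeR FDR 0.0483) lost its call when the length trend was removed (-0.97 ± 0.38, FDR 0.0938) and when any of 6 single libraries of the comparison other than Pol I-AID replicate 1 or TIR1 replicate 2 was left out. gas-1, a core subunit of complex I, did not overlap between the strains (10.9, 8.20, 13.3 and 9.45 CPM in TIR1, 6.15, 7.74, 7.58 and 7.92 in Pol I-AID) but missed the threshold (-0.51 ± 0.18, FDR 0.0585), and passed it with the length trend removed (FDR 0.0399). The core subunits nuo-1 (-0.16 ± 0.14, 95% interval -0.45 to 0.12), nuo-2 (-0.23 ± 0.29), nuo-5 (-0.20 ± 0.14) and nduf-7 (-0.18 ± 0.22) were not called.

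Complex II, succinate dehydrogenase, entered with mev-1 alone. mev-1 was at 12.5, 19.6, 21.02 and 22.4 CPM in TIR1 and 11.3, 8.06, 14.5 and 13.9 in Pol I-AID at 24 h. TIR1 replicate 1 lay within the range of Pol I-AID, and the difference of -0.68 ± 0.27 was not called (edgeR FDR 0.106), while it was with the length trend removed (-0.49 ± 0.16, FDR 0.0436).

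The 5 libraries high in short genes were unevenly spread over the groups, and the values were therefore also read by exon length. Of the 42 members tested, 9 had their 5 highest libraries of all 24 in exactly these 5, against 2.04% of the other genes. These 9 were cox-5A, cox-5B, cox-6A, cox-6B, cox-6C, cyc-2.1, nduf-5, asg-2 and atp-4. Of members under 500 bases, 33.3% did so, against 22.9% of other genes of that length. From 500 to under 1000 bases it was 40% of members and 7.41% of others. From 1000 to under 2000 bases it was 5.26% and 0.16%. The members' share there is 1 of 19 genes, cox-6B, whose longest current transcript has only 572 bases. The length trend is that of all genes, so its removal need not take out this excess among members. By length class, members under 500 bases had a median log2 difference at 24 h of -2.07 (6 genes, 5 called lower), against -1.26 for 170 other genes of that length, of which 33 were called lower. Members from 500 to under 1000 bases stood at -0.86 (15 genes, 4 called), against -0.22 for 1268 others (85 called). Members from 1000 to under 2000 bases stood at -0.36 (19 genes, 5 called, cox-6B among them), against 0.01 for 3122 others (198 called). The 2 longest, atp-1 and nuo-5, stood at -0.30 against 0.11 for 2301 others. With the trend removed, 13 members were lower and 0 higher (6.9% and 7.46% of all genes), and 0 of the 6 members under 500 bases were called. The median over the members was -0.49, against -0.01 for other genes, and the class medians were -0.97, -0.72, -0.38 and -0.41 from the shortest to the longest.

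The removal of the trend depends on the length assigned to a gene. For cox-6B the deposited exon length was 1121 bases, against 572 for the longest transcript in the current annotation, and for atp-4 it was 974 against 542. With the deposited lengths their values barely moved (-1.71 ± 0.48 and -1.298 ± 0.30 on the log2 scale), and with the current lengths they were -1.04 and -0.70, with edgeR FDR 0.00395 and 0.00359. With the current lengths 12 members were lower and 1, nduf-6, was higher (1.17 ± 0.32, FDR 0.0128), against 6.88% and 7.42% of all genes.

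**Figure D5:**
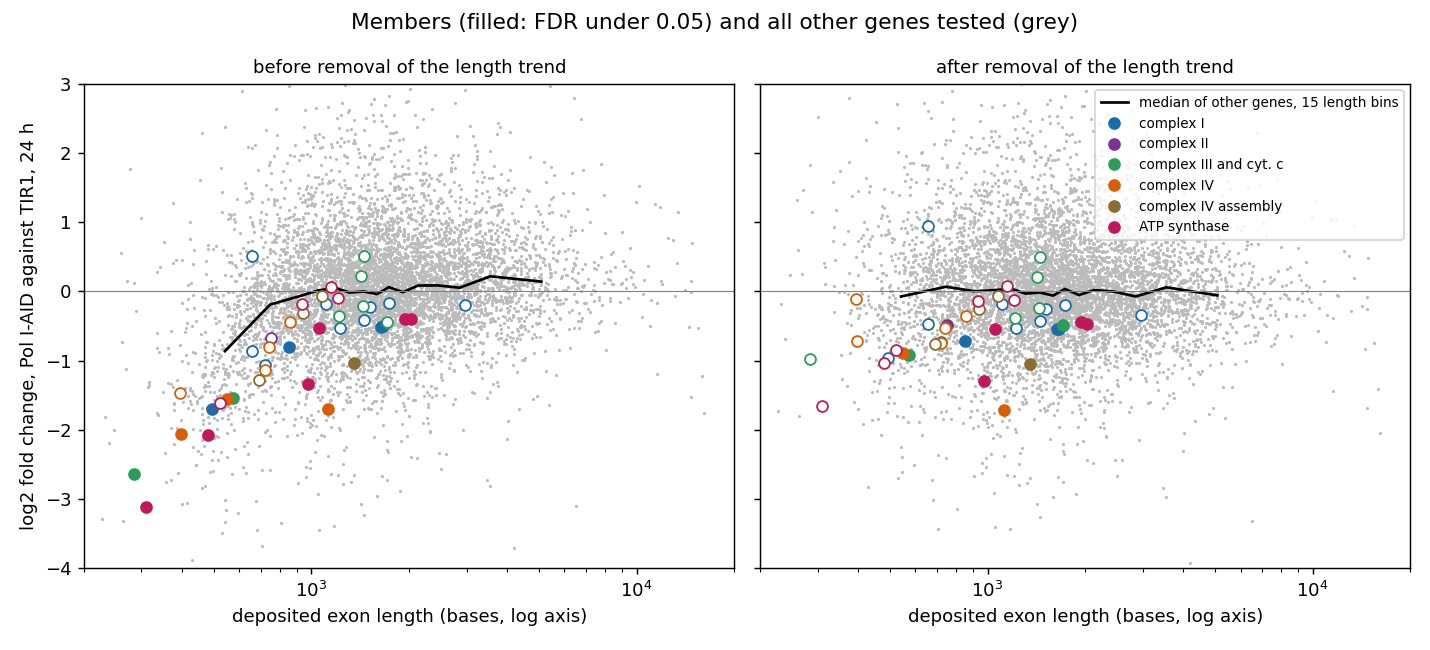
Log2 fold change of Pol I-AID against TIR1 at 24 h plotted against deposited exon length (log axis) for members by complex (filled where FDR was under 0.05) and for all other genes tested (grey, with values beyond the axis not drawn), before (left) and after (right) removal of the length trend. The black line is the median of other genes in 15 length bins. Members under 500 bases have a median of -2.07 before and -0.97 after the removal.

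Before auxin, no member differed between the strains by edgeR (0 lower and 0 higher at an FDR under 0.05, against 0.159% and 0.0579% of all genes). At an unadjusted p under 0.05, 1 member, cox-15, was lower and 0 were higher (4.94% and 4.1% of all genes). The median over the 42 members was 0.00, and 21 of them had positive values. The 7 subunits of complex IV all had positive values (median 0.47, and 0.22 with the length trend removed), with Pol I-AID replicate 3, a library high in short genes, as the highest library for cox-6B at 22.8 CPM against 4.79 to 7.31 in the other 3.

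After 12 h on auxin, 5 members were lower and 1 higher in Pol I-AID, against 2.43% and 2.96% of all genes. atp-1 was at 4206, 3792, 3891 and 4112 CPM in TIR1 and 3003, 3057, 2771 and 2485 in Pol I-AID, without overlap (-0.50 ± 0.10 on the log2 scale, edgeR FDR 0.00331). atp-2 was at 222, 232, 216 and 242 CPM in TIR1 and 158, 192, 156 and 151 in Pol I-AID (-0.47 ± 0.12, FDR 0.0158). atp-3 was at 27.6, 32.7, 29.7 and 32.6 CPM in TIR1 and 17.7, 20.3, 25.5 and 24.0 in Pol I-AID (-0.49 ± 0.14, FDR 0.0328). In CPM, each of these 3 was lower in Pol I-AID without overlap, at 12 h as at 24 h. Relative to counts outside the vitellogenin genes, the strains overlapped for atp-2 and atp-3 at 12 h. nuo-4 was at 25.8, 26.0, 25.6 and 29.6 CPM in TIR1 and 19.3, 20.4, 18.05 and 17.8 in Pol I-AID, also without overlap (-0.50 ± 0.13, FDR 0.0232). nduf-9, an accessory subunit of complex I, was at 7.30, 5.60, 8.05 and 7.21 CPM in TIR1 and 3.28, 3.75, 3.79 and 5.88 in Pol I-AID (-0.75 ± 0.19, FDR 0.0150), with Pol I-AID replicate 4 above the lowest TIR1 library. None of the 5 was 2-fold lower, as 0.522% of all genes were, and all 5 have exons of at least 1058 bases.

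The single member that was higher at 12 h was nduf-6, an accessory subunit of complex I. It was at 0.494, 1.99, 1.39 and 0.560 CPM in TIR1 and 4.62, 1.88, 4.11 and 5.47 in Pol I-AID. Pol I-AID replicate 2 lay below TIR1 replicate 2, and the other 3 Pol I-AID libraries lay above every TIR1 library. The difference was 1.85 ± 0.49 on the log2 scale (3.59-fold, edgeR FDR 0.0239), 1.82 ± 0.35 with the length trend removed and 2.12 without the 5 libraries (FDR 0.0136). At 0 h nduf-6 was at 2.73, 1.11, 0.724 and 0.681 CPM in TIR1 and 0.861, 0.897, 2.45 and 0.543 in Pol I-AID. By 24 h it had reached 2.04, 4.10, 4.15 and 7.97 CPM in TIR1, against 6.40, 5.67, 8.37 and 6.79. At 24 h the groups overlapped and the difference was not called (0.51 ± 0.46, FDR 0.534). Within Pol I-AID it rose from 0 to 24 h by 2.47 ± 0.49 (edgeR FDR 0.000319), and within TIR1 by 1.78 ± 0.50 (FDR 0.0153). The call within TIR1 was lost in 7 of 23 alternatives, among them without TIR1 replicate 2 or 4 at 0 h, without TIR1 replicate 4 at 24 h (1.37, FDR 0.0930) and without the 5 libraries (1.26, FDR 0.141). Its exons overlap those of prpf-4 on the opposite strand by 55 bases.

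The number of calls at 12 h depended on the libraries too. The 5 lower members became 1 without Pol I-AID replicate 1, 2 without TIR1 replicate 2 or Pol I-AID replicate 3, and 3 without any of Pol I-AID replicates 2 and 4 or TIR1 replicates 3 and 4, and 6 without TIR1 replicate 1. Within replicates 2 to 4 there was 1, and no share of all genes is given for these fits. nduf-6 was not called without TIR1 replicate 1 or 4, or without Pol I-AID replicate 1 or 4. At 12 h the summed level of 5 neuronal markers was 32.4 to 40.3 CPM outside the vitellogenin genes in TIR1, against 43.4 to 54.8 in Pol I-AID. Over all libraries egl-21 had the highest median of the 5 (26.2 CPM), and sbt-1 was at 0 in 18 libraries, so the sum may follow egl-21 alone. The part of these markers in the members' differences was not tested.

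Over time, some members fell in both strains. The sum of the 6 intestinal markers fell too. In TIR1 it was 3297 to 3960 CPM outside the vitellogenin genes at 0 h and 2394 to 2568 at 24 h. In Pol I-AID it was 3614 to 4138 at 0 h and 1709 to 2022 at 24 h. The part of these markers in the members' changes over time was not tested. From 0 to 24 h, 16 members were lower and 1 (nduf-6) higher in Pol I-AID, against 12.6% and 15.2% of all genes, and the median was -0.71 against -0.06 for other genes. In TIR1, 9 members were lower and 3 (nduf-5, nduf-6 and cox-6C) higher, against 6.87% and 9.42% of all genes, with a median of -0.04 (-0.03 for other genes). With the length trend removed, the counts were 21 lower and 1 higher in Pol I-AID (13.6% and 16.2% of all genes) and 9 lower and 1 higher in TIR1 (6.53% and 9.45%), the higher member being nduf-6 in both. atp-1 stood at 4375, 4930.4, 3924 and 4899 CPM in TIR1 and 4588, 5147, 3833 and 4392 in Pol I-AID at 0 h, and by 24 h it had changed by -0.43 ± 0.10 in TIR1 (edgeR FDR 0.00416) and -0.82 ± 0.10 in Pol I-AID (FDR 7.89e-07). atp-2 stood at 254, 253, 235.0 and 307 CPM in TIR1 and 273, 339, 238 and 259.6 in Pol I-AID at 0 h, and changed by -0.56 ± 0.12 and -1.04 ± 0.12 (FDR 0.00153 and 2.02e-07). The calls within TIR1 for atp-1 and atp-2 were lost without replicate 4 and without the 5 libraries high in short genes. Those within Pol I-AID were lost in 0 of 24 alternatives. asb-2 fell by a like amount in both strains (-0.59 ± 0.16 in TIR1, -0.65 ± 0.15 in Pol I-AID, FDR 0.00902 and 0.00189), as did the complex I core subunit nuo-1 (-0.75 ± 0.14 and -0.73 ± 0.13, FDR 0.000384 and 0.000152). The change of the strain difference over this time was -0.06 ± 0.22 for asb-2 and 0.02 ± 0.19 for nuo-1, with 95% intervals of -0.51 to 0.39 and -0.37 to 0.41.

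The strain difference itself changed from 0 to 24 h for 3 members, all towards lower levels in Pol I-AID, and for 0 in the other direction (3.42% and 4.24% of all genes, and 18 lower and 0 higher members at an unadjusted p under 0.05, against 11.2% and 10.3% of all genes). These were ucr-11 (-2.86 ± 0.81, edgeR FDR 0.0273), cox-6C (-3.12 ± 0.89, FDR 0.0291) and atp-4 (-1.69 ± 0.50, FDR 0.0340). With the length trend removed, ucr-11 and cox-6C lost the call (FDR 0.635 and 0.260), and atp-4 (-1.63 ± 0.42, FDR 0.0138), cox-6B (-2.23 ± 0.67, FDR 0.0369), atp-1 (-0.43 ± 0.13, FDR 0.0357) and atp-2 (-0.50 ± 0.15, FDR 0.0372) were called lower, against 3.97% of all genes (4.72% higher). The deposited lengths used there for atp-4 and cox-6B (974 and 1121 bases) exceed their longest current transcripts (542 and 572), so their trend was hardly removed. With current lengths, 4 members were lower and 1 higher, against 4.04% and 4.64% of all genes. All 3 calls of the uncorrected fit were lost without Pol I-AID replicate 3 at 0 h or without TIR1 replicate 4 at 24 h, both of them libraries high in short genes. For atp-1 and atp-2 the uncorrected values were -0.39 ± 0.14 (FDR 0.102) and -0.48 ± 0.17 (FDR 0.0811).

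Genes that work beside the members were read from the same fit at 24 h. Of 18 listed subunits and ATP synthase inhibitors outside the name rule, 7 were in the count table and 6 were tested. No subunit encoded in mitochondrial DNA was among those tested. Of the 6, 3 were lower and 0 higher (6.45% and 7.34% of all genes), and 1, sdha-2, was lower without the 5 libraries high in short genes. The 3 were the succinate dehydrogenase flavoprotein genes sdha-1 (-0.55 ± 0.16, edgeR FDR 0.0253) and sdha-2 (-1.16 ± 0.29, FDR 0.00725), and mai-2, an inhibitor of the ATP synthase (-2.08 ± 0.63, FDR 0.0276). The 16 tested complex I genes named ndua, ndub, nduc, ndus or nduv had a median of -0.67, or -0.43 with the length trend removed, and edgeR and DESeq2 called 0 (7 lower and 0 higher at an unadjusted p under 0.05). Of 8 genes of ubiquinone synthesis both tools called 0, with 2 lower and 0 higher at an unadjusted p under 0.05 (median -0.36). Of 11 further assembly and haem genes, 1 was higher (coa-3, 0.97 ± 0.14, FDR 2.08e-05) and 2 lower (cchl-1, -0.99 ± 0.32, FDR 0.0405, and coa-5, -1.504 ± 0.48, FDR 0.0368). With the length trend removed coa-5 was not called (-0.71, FDR 0.169). Of 4 listed ADP/ATP carriers, 1 was tested, ant-1.1, and it was not called (-0.05 ± 0.08). Of 8 genes of the mitochondrial stress response, 1 was lower, the chaperonin hsp-60 (-0.73 ± 0.17, FDR 0.00464), and hsp-6 was not called (-0.19 ± 0.47).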

How the data were processed

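RNA was measured in dissected intestines of TIR1 and Pol I-AID worms. The authors made libraries with a SMART-Seq mRNA kit and Nextera XT, trimmed the reads with Trimmomatic, aligned them with QuasR to ce10 and counted unique reads over WS220 exons in the orientation of the gene. The SMART-Seq kit was not taken to mark strand, so genes that overlap on opposite strands are uncertain. The deposited values are raw counts per gene with the summed exon length. Names were read from the annotation for 94.1% of the 20392 genes.

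From the counts, genes passing filterByExpr were scaled by TMM factors and fitted with edgeR (version 4.0.16 in R 4.3.3, limma 3.58.1, quasi-likelihood F-test, 1 mean for each of the 6 groups, 18 residual degrees of freedom). FDR is the Benjamini-Hochberg adjusted p over all genes tested, and a call is an FDR under 0.05. SE is that of the fitted log2 fold change. The length trend was removed with an offset per library, a lowess of log2 level on log2 exon length (span 0.3). The scripts were tested on simulated data. Alternatives were DESeq2 (1.42.0), its size factors, no filter, at least 10 counts in every library, vitellogenin genes left out, the groups compared alone, the replicate block, libraries left out and a 2-fold minimum. Current gene lengths (the longest transcript of Ensembl), and leaving out the 5 libraries high in short genes or the 3 with markers of other tissues, were added after seeing the data, as was the list of genes named ndua to nduv.

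The floor of 3 counts corresponded to 0.0919 to 0.764 CPM per library. It covers counting error only, since the reads carry no molecular identifiers. The labels call the replicates independent, and p-values measure the spread between them. Members, lists and tests were chosen with earlier results of these data known. Named with values in every library were up to 4 called members per complex with the largest change at 24 h (or the one of lowest p), the highest per kilobase of each complex, paralogs, and members called in another comparison. Other members, among them gas-1, cox-4 and the core subunits, were named to account for each complex.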

Additional observations from a re-analysis of the deposited data

Results flagged for a closer look

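Values of members named with a test, most of them called at 24 h, and the summed levels of the complexes were searched in the groups of 4 libraries. The search was for a single library whose gap to the nearest other was a larger part of the group's range than the 95% critical value of Dixon's test allows. Sums repeat the values of their members, so the groups are not independent, and the result is not a rate over all members. Chance gives about 1 in 20 such groups. Of 156 groups searched, 13 held such a library, and in 11 of them it was one of the 5 libraries high in short genes.

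Pol I-AID at 0 h replicate 3 stood apart for 6 members. It was at 5.09 CPM for nduf-5 against 1.402 to 1.84 in the other 3 libraries, at 21.5 for mev-1 against 11.03 to 11.9 (which is also the sum of complex II), and at 39.1 for cyc-2.1 against 9.27 to 12.2. For cox-6C it was at 4.07 CPM against 1.38 to 1.70, for cox-6B at 22.8 against 4.79 to 7.31, and for atp-4 at 15.9 against 6.41 to 7.69. The summed level of the complex IV subunits was 101.6 CPM in it and 36.1 to 45.1 in the others. Pol I-AID at 12 h replicate 4 stood apart for nduf-5 (6.28 CPM against 1.15 to 1.68), cox-6B (18.2 against 5.34 to 7.06) and asg-1 (2.34 against 0.673 to 0.840). Outside these libraries, nuo-4 in TIR1 at 12 h replicate 4 was high (29.6 CPM against 25.6 to 26.0), and atp-4 in TIR1 at 0 h replicate 4 was low (5.49 CPM against 7.70 to 8.11).

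The strain difference changed between 0 and 24 h, by edgeR's test of the interaction, for ucr-11 (-2.86 on the log2 scale), cox-6C (-3.12) and atp-4 (-1.69), and these 3 calls were lost without Pol I-AID at 0 h replicate 3.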

How the results depend on the processing

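The median log2 difference over all members at 24 h lay between -0.62 and -0.40 in every alternative, and no named member reversed its direction where it had been called. Counts of calls moved more, and the cause was not tested. Where no share of all genes is given here or above, a move of the members alone cannot be told from one of all calls. DESeq2 called 1 lower member at 0 h and 7 in the change of the strain difference from 0 to 24 h (3 by edgeR). With at least 10 counts in every library, which left 26 members, 0 were higher at 12 h and 0 from 0 to 24 h in either strain, and 5 were lower in the change. With no filter (47 members), 1 was lower at 12 h and 11 in the change, and 9 were higher and 4 lower over time in TIR1. Fitted on the groups compared alone, 0 members were higher and 0 lower at 12 h. Without the vitellogenin genes, 6 were lower in the change. With the length trend removed, 1 member was higher over time in TIR1, and with current lengths 1 was higher there, at 24 h and in the change. Without the 5 libraries high in short genes, 2 members were lower at 12 h (1.03% of all genes), 2 at 24 h (3.24%) and 1 in the change (2.06%). Over time in TIR1, 0 were then higher and 3 lower (5.39% and 2.44% of all genes). Without the 3 libraries with markers of other tissues, 7 were lower at 24 h (4.81% of all genes) and 0 in the change (1.76%). Over time in TIR1, 1 was then higher (7.66% of all genes). With a 2-fold minimum, 0 were lower at 12 h, 2 over time in TIR1 and 3 in Pol I-AID.

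The replicate block left 12 lower members at 24 h, 6 at 12 h and 1 in the change, and with the length trend removed 13, 7 and 3, with 1 higher over time in TIR1. Libraries of the same number in different groups correlated between -0.10 and 0.21 in their deviations (6 of 60 pairs over 0.1, against 9 of 180 pairs of other numbers), and 10 of 24 correlated best with their own number, so the numbers were not read as pairs.

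Leaving out each replicate number or library in turn gave 0 to 1 higher and 1 to 6 lower members at 12 h, 4 to 18 lower at 24 h, 0 to 6 lower in the change, 0 to 5 higher and 2 to 9 lower over time in TIR1, and 12 to 16 lower in Pol I-AID. The complex IV median at 24 h went from -1.47 to -0.31 without the 5 libraries, and that of its assembly factors to 0.01 without replicate 4. Depth limits the low members: hpo-18 had 0 to 24 counts per library at 24 h, and 5 members were not tested.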
